A study of Mus musculus with 9 samples.

Results

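Messenger RNA of 8 receptors that steer natural killer (NK) cells between bone marrow, blood and tissues is described here: the sphingosine-1-phosphate (S1P) receptors S1pr5 and S1pr1 and the chemokine receptors Cxcr4, Cx3cr1, Cxcr3, Cxcr6, Ccr2 and Ccr7. Every probe set that the platform annotation gives to 1 of these symbols alone was taken, which made 13 probe sets: 4 of Ccr2, 2 each of Cx3cr1 and Cxcr6, and 1 of each other gene. These are 8 of 18193 genes with a probe set of their own. A filter on mean intensity over all arrays passed 10 of the 13 probe sets, of 7 genes. Both Cxcr6 probe sets and 1 of Cx3cr1 lay below it and were not tested.

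RNA was measured on 9 Affymetrix arrays, 3 each of NK cells sorted from bone marrow of NKDxIL15tg mice, from spleen of NKDxIL15tg mice and from spleen of IL15tg mice. All 3 groups carry the IL15 transgene, whose product is a cytokine that NK cells need to live, so no group shows a wild-type level. NKD is a transgenic line in which mature NK cells are few, and the series text names NKDxIL15tg cells immature and IL15tg cells mature. Immaturity and the NKD genotype were therefore shared by the same 6 arrays and cannot be told apart. Ages, promoters of the transgenes, numbers of pooled mice and the gate of the sort are not given in the sources used here. Each group holds samples labelled as biological replicates, and all comparisons rest on 3 of them.

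NK cells, like other lymphocytes, leave bone marrow and enter the circulation under opposing signals. Cxcr4 binds Cxcl12 made by marrow stroma and retains cells there, whereas S1P is abundant in blood and draws out cells that carry its receptors. In mice, S1pr5 is a main S1P receptor of NK cells and depends on the transcription factors T-bet (gene Tbx21) and Zeb2. S1pr1, best known from T and B cells but not confined to them, depends on Klf2 and is removed from the surface by Cd69. Cx3cr1, the receptor for fractalkine, marks the most mature NK cells, Cxcr3 and Ccr2 guide cells to inflamed tissue, Cxcr6 holds cells in liver sinusoids, and Ccr7 guides cells to lymph nodes.

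The promoters of the 4 genes that passed a test below are shown, 2 that were lower in NKDxIL15tg cells (S1pr5 and Cx3cr1) and 2 that were higher (Cxcr4 and Ccr2). Each is the 250 bases before the RefSeq gene start in GRCm38.p6, read on the strand of the gene: S1pr5 at chr9:21248444-21248693 (minus), Cx3cr1 at chr9:120068297-120068546 (minus), Cxcr4 at chr1:128592300-128592549 (minus) and Ccr2 at chr9:124101933-124102182 (plus). Capitals mark a match to CNCACCC.
S1pr5: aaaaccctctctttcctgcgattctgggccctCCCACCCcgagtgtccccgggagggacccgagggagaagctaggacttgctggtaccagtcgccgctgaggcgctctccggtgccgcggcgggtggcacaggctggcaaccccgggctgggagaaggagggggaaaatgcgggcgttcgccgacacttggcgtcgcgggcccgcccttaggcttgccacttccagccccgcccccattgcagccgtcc
Cx3cr1: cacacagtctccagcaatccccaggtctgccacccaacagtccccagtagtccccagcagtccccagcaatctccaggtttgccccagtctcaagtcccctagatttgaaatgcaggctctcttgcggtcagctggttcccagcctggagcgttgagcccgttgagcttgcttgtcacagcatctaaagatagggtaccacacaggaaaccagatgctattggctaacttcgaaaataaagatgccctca
Cxcr4: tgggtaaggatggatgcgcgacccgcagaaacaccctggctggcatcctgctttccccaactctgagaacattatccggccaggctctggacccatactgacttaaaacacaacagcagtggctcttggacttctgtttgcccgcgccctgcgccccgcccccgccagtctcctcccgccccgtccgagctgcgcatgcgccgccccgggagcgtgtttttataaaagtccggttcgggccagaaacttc
Ccr2: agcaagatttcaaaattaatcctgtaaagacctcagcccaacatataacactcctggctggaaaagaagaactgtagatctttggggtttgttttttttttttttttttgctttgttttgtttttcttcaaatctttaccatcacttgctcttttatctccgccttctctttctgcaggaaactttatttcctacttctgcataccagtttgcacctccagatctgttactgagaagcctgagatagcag

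The S1pr5 and Cxcr4 promoters are rich in G and C, and those of Cx3cr1 and Ccr2 are not. G and C made up 69.2% of the S1pr5 window and 61.2% of that of Cxcr4, with 22 and 19 CG pairs. The shares were 53.6% for Cx3cr1 with 4 CG pairs and 37.2% for Ccr2 with 1, beside a median of 52.4% and 6 CG pairs over 32851 promoters. Of the 8 receptors, 6 matched a RefSeq promoter, and S1pr1 and Ccr7 did not. The windows were searched on both strands for 3 motifs. The first was the T-box motif GGTGTGA. The second was the E-box CAGGTG, which Zeb proteins can bind. The third was the Klf box CNCACCC, of the kind Klf proteins bind. The T-box motif and the Klf box on opposite strands can share letters. The S1pr5 window holds 1 Klf box, whose first base lies 218 bases before the start, as do 27.5% of all windows. The Cxcr3 window holds 1 E-box on the reverse strand, as do 17.2%, and the T-box motif, found in 3.33%, occurs in none of the 6. These matches describe letters and do not show that a factor binds there.

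Before the results, 1 array needs naming. It is NKDxIL15tg bone marrow replicate 3, with a median intensity of 64.9, where the other 8 had 56.6 to 59.1. It held 2080 probe sets (7.70% of those tested) more than 2-fold above each of the other arrays, and no other array held more than 6, so several results it touches are given with and without it. Genes of NK cells were bright in all groups: 13 of them summed to 30697 to 33182 in NKDxIL15tg bone marrow, 36638 to 40135 in NKDxIL15tg spleen and 49062 to 51054 in IL15tg spleen. Genes of other cells moved with the groups too. Sums of 13 granulocyte genes were 11202 to 27867 in NKDxIL15tg bone marrow, 2974 to 7465 in NKDxIL15tg spleen and 717 to 1024 in IL15tg spleen. Sums of 13 dendritic cell genes were 1683 to 2213 in NKDxIL15tg bone marrow, 2444 to 2770 in NKDxIL15tg spleen and 5322 to 8069 in IL15tg spleen. Of 11 tested dendritic cell genes 5 fell within the spleen (Itgax, H2-Aa, H2-Ab1, H2-Eb1 and Cd74) and 6 did not pass. The median log2 change of the 11 was -0.03 there. In bone marrow against IL15tg spleen the same 5 fell and 1, Tcf4, rose. T cell sums (10 genes) were 2244 to 3147 in bone marrow, 2490 to 2935 in NKDxIL15tg spleen and 1146 to 1278 in IL15tg spleen. Of these, Cd28 alone gave 1189 to 1675, 1395 to 1776 and 342 to 411. It was the 1 of 7 tested T cell genes to pass in any comparison. Erythroid sums (9 genes) were 5695 to 7645 in bone marrow, 7714 to 8306 in NKDxIL15tg spleen and 1900 to 2048 in IL15tg spleen. Of these, Car2 alone gave 4726 to 6769, 6778 to 7150 and 1356 to 1510. Of 8 tested erythroid genes 3 rose within the spleen and 5 in bone marrow against IL15tg spleen. Of all genes 7.65% and 11.5% rose in these comparisons. The part of these cells in the results below was not tested. In sorted but bulk RNA, fewer cells of a type and less RNA per cell cannot be told apart.

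In the spleen, NKDxIL15tg cells had less RNA of Cx3cr1 and S1pr5 and more of Cxcr4 and Ccr2 than IL15tg cells. Of the 10 tested probe sets 4 passed, 2 lower (Cx3cr1, S1pr5) and 2 higher (Cxcr4, 1 of 4 for Ccr2), and 6 did not, where 13.8% of all tested probe sets passed (7.04% lower, 6.75% higher). Cx3cr1 reached the filter only through IL15tg spleen, where it was bright. Its place in this count and in those of the next paragraph therefore rests on the group where it is high. The call is an adjusted p under 0.05 in limma, a linear model with moderated variances, with Benjamini-Hochberg adjustment over all 27022 tested probe sets. The 3 arrays of one group lay beyond the 3 of the other in 8 of the 10, where this held for 38.1% of all tested probe sets. The receptors were chosen with earlier results of these data known. These counts and those of the next paragraph are therefore descriptions only. Without bone marrow replicate 3, which sets part of the spread shared by all groups, 7 passed.

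Between NKDxIL15tg bone marrow and NKDxIL15tg spleen none of the 10 passed, as few probe sets did at all (14, or 0.0518%); S1pr5 and Ccr7 had an unadjusted p under 0.05. The groups did not overlap in 2 of the 10, S1pr5 lower and Ccr7 higher in bone marrow, against 16.1% of all tested probe sets (6.31% lower, 9.77% higher). Between NKDxIL15tg bone marrow and IL15tg spleen 6 of 10 passed, against 21.3% of all (11.5% lower, 9.79% higher): Cx3cr1 and S1pr5 lower, Cxcr4 and 3 of 4 Ccr2 probe sets higher. Groups did not overlap in 7 of 10 there, against 42.9%. The median log2 change of the 10 was -0.07, 0.14 and 0.33 in the 3 comparisons, beside -0.00, 0.02 and 0.08 over all tested probe sets. Ccr2 holds 4 of the 10 and so weighs on these figures. With 1 probe set per gene, the brightest, 3, 0 and 4 of 7 genes passed, against 12.5%, 0.0696% and 20.2% of all genes. The median log2 change of the 7 was -0.31, 0.12 and -0.03, beside 0.02, 0.03 and 0.12 over all genes.

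**Figure D1:**
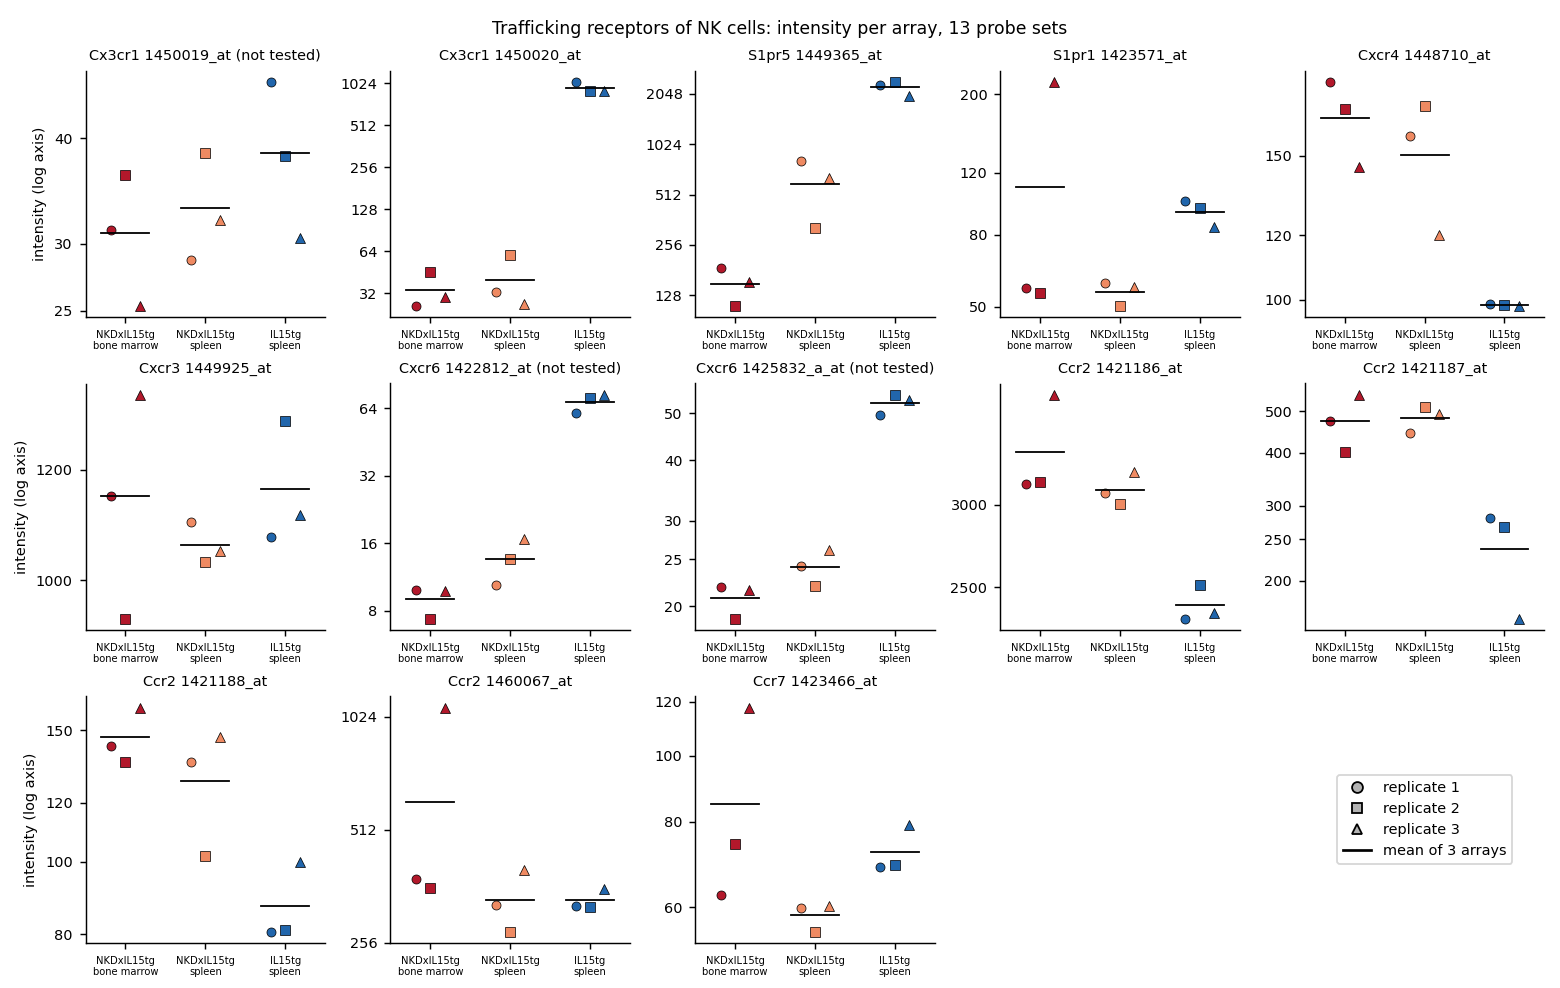
Intensity (log axis, a scale of its own in each panel) of the 13 probe sets of 8 receptors on each of the 9 arrays, by group, with the marker shape giving the replicate and the bar the mean of 3 arrays. S1pr5 forms 3 separate ranges, Cx3cr1 is at 903 to 1051 in IL15tg spleen and at 60.4 or less elsewhere, and bone marrow replicate 3 is the highest array of its panel for S1pr1, Ccr7, Cxcr3 and all 4 Ccr2 probe sets.

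S1pr5 is a receptor by which NK cells leave bone marrow toward S1P. It was lowest in NKDxIL15tg bone marrow, intermediate in NKDxIL15tg spleen and highest in IL15tg spleen. Its intensities were 186, 111 and 154 in NKDxIL15tg bone marrow, 811, 324 and 641 in NKDxIL15tg spleen and 2313, 2416 and 1981 in IL15tg spleen. The 3 ranges did not overlap, and the spread was widest in NKDxIL15tg spleen, where replicate 2 was low. The group means were 150.1 ± 37.7, 592.1 ± 247 and 2237 ± 228 (SD, n = 3 each).

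The step within the spleen was a log2 change of -2.01 ± 0.32 (standard error; 95% interval -2.73 to -1.29; adjusted p = 0.00412, NKDxIL15tg against IL15tg). The step between the organs was -1.91 ± 0.32 (-2.63 to -1.19), the 10th lowest change of 27022, but its adjusted p was 0.178. Without NKDxIL15tg spleen replicate 2 the organ step was -2.30 with an adjusted p of 0.0250, and without bone marrow replicate 3 it was -1.95 with 0.147. Over both steps together, bone marrow against IL15tg spleen, S1pr5 fell by 3.92 ± 0.32 on the log2 scale (adjusted p = 9.61e-05).

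The 2 steps of S1pr5 were close in size: the spleen step exceeded the organ step by 0.10 ± 0.55 (95% interval -1.15 to 1.35, adjusted p = 0.946). The interval spans a difference of more than 1 log2 unit each way, so equality was not shown. Of the 10 tested receptor probe sets, S1pr5 was the only one whose 3 groups formed 3 separate, ordered ranges, a pattern that 1.56% of all tested probe sets had in the rising direction and 1.45% in the falling one. The untested Cxcr6 probe set 1425832_a_at had the same order, but dim, at 18.8 to 21.9, 22.02 to 26.1 and 49.5 to 54.5. A stricter pattern, both steps passing in one direction, was met by none of the 10 and by 5 probe sets in all (0.0185%), named after their values were seen: Pou2af1, Cr2 and 2 of Ms4a1, all genes of B cells, and Macir. With a floor of 64 the organ step was -0.03 for Cr2 (adjusted p = 1) and -1.13 for the brighter Ms4a1 probe set (adjusted p = 0.285). Cr2 lost its organ call in 7 of 19 settings and this Ms4a1 probe set in 3 of 20, both without NKDxIL15tg spleen replicate 1, and Cr2 also without replicate 2 or 3 of that group or bone marrow replicate 1 or 2. Without NKDxIL15tg spleen replicate 2, S1pr5 met it as well.

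**Figure D2:**
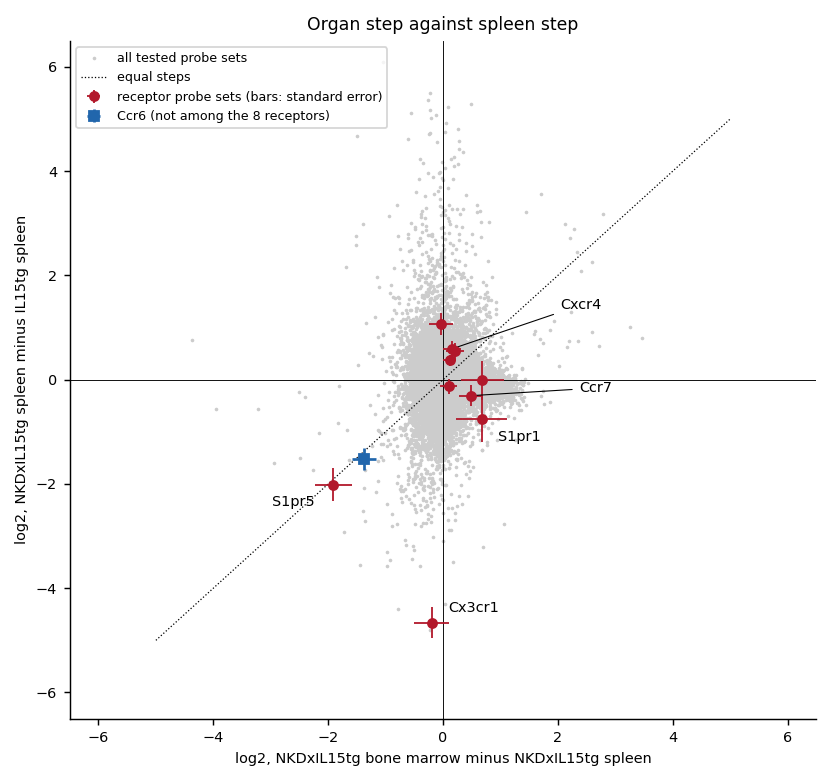
Log2 change of each tested probe set (grey) between NKDxIL15tg bone marrow and NKDxIL15tg spleen (x axis) and between NKDxIL15tg spleen and IL15tg spleen (y axis), with the 10 receptor probe sets in red and Ccr6 in blue, bars giving standard errors. S1pr5 (-1.91, -2.01) lies near the dotted line of equal steps, as does Ccr6 (-1.38, -1.52), whose organ step shrinks to -0.19 with a floor of 64. Cx3cr1 (-0.20, -4.66) was dim in both NKDxIL15tg groups, so its place on the x axis is not informative.

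S1pr1, which lets T and B cells leave lymphoid organs, gave low signals and a value that 1 array decides. Its intensities were 56.6, 54.7 and 217 in NKDxIL15tg bone marrow, 58.2, 50.3 and 57.0 in NKDxIL15tg spleen and 99.9, 95.1 and 84.1 in IL15tg spleen. The spleen groups did not overlap, and bone marrow replicate 3 lay above all other arrays. Within the spleen the log2 change was -0.75 ± 0.45 (NKDxIL15tg against IL15tg, adjusted p = 0.328), and the same change had an adjusted p of 0.00148 without bone marrow replicate 3 and 0.00299 in a model of the 2 spleen groups alone. Bone marrow against IL15tg spleen was -0.08 (adjusted p = 0.904) with that array and -0.74 (adjusted p = 0.00268) without it. Bone marrow against NKDxIL15tg spleen was 0.67 (adjusted p = 0.520) with it and 0.02 (adjusted p = 0.980) without it.

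Few other genes of the S1P pathway passed a test. Of 15 listed genes 12 were tested in limma. Within the spleen 0 passed, with 3 at an unadjusted p under 0.05, and between the organs 0 passed, with 0 at that level. Only Sgpl1, the lyase that degrades S1P, passed in bone marrow against IL15tg spleen (-0.63 ± 0.15, adjusted p = 0.0162, but 0.0641 and 0.0677 without IL15tg replicates 1 and 2 and 0.0508 without bone marrow replicate 2). Backgrounds for single genes, each by its brightest probe set, were 12.5% (4.87% lower, 7.65% higher), 0.0696% and 20.2% (8.7% lower, 11.5% higher) in the 3 comparisons. S1pr4, a receptor of T cells and other leukocytes, was at 631, 527 and 445 in bone marrow, 698, 589 and 472 in NKDxIL15tg spleen and 804, 759 and 750 in IL15tg spleen. It lay below IL15tg spleen in all 6 NKDxIL15tg arrays, but neither difference passed (-0.54, adjusted p = 0.0512 for bone marrow, which passed without bone marrow replicate 1, at 0.0371, and without NKDxIL15tg spleen replicate 1 or 3, at 0.0441 and 0.0376; -0.41, adjusted p = 0.151 for spleen). S1pr2 (0.09, adjusted p = 0.843) and S1pr3 (-0.28, adjusted p = 0.212) did not pass within the spleen either. Cd69, whose protein takes S1pr1 off the surface, gave 272, 457 and 329 in bone marrow, 280, 587 and 394 in NKDxIL15tg spleen and 361, 472 and 373 in IL15tg spleen, with log2 changes of 0.01 within the spleen and -0.22 between the organs (adjusted p = 0.992 and 0.740).

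Cxcr4, the receptor that retains cells in bone marrow, ran the other way. Its intensities were 185, 171 and 145 in NKDxIL15tg bone marrow, 159, 173 and 120 in NKDxIL15tg spleen and 98.8, 98.6 and 98.3 in IL15tg spleen. All 6 NKDxIL15tg arrays lay above all 3 IL15tg arrays, while the organs overlapped. Bone marrow exceeded IL15tg spleen by 0.75 ± 0.15 (95% interval 0.41 to 1.10, adjusted p = 0.00902), which passed in all 20 alternative settings. NKDxIL15tg spleen exceeded IL15tg spleen by 0.59 ± 0.15 (adjusted p = 0.0334), a call lost under 8 of 20 settings, among them scaling to the 75th percentile (0.0808) and leaving out any of IL15tg replicates 1, 2 and 3 (0.102, 0.101 and 0.0955) or NKDxIL15tg spleen replicate 1 or 2 (0.0960 and 0.115). Bone marrow against NKDxIL15tg spleen was 0.16 ± 0.15 (-0.19 to 0.50, adjusted p = 0.643). The ligand gene Cxcl12 lay below the filter, at 38.5 to 44.0 in bone marrow, 35.0 to 41.4 in NKDxIL15tg spleen and 33.9 to 37.9 in IL15tg spleen, and was not tested.

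Cx3cr1, a receptor of the last stage of NK cell maturation, was bright in IL15tg spleen alone. Its tested probe set, 1450020_at, read 25.9, 45.2 and 30.1 in NKDxIL15tg bone marrow, 32.9, 60.4 and 26.8 in NKDxIL15tg spleen and 1051, 903 and 904 in IL15tg spleen. The ranges of the 2 NKDxIL15tg groups overlapped, and 5 of their 6 arrays lay below the intensity of 47.7 used as the filter. The mean log2 intensity was 5.04 in NKDxIL15tg bone marrow, 5.23 in NKDxIL15tg spleen and 9.89 in IL15tg spleen, so the probe set passed the filter of 5.58 only through IL15tg spleen. Whether the transcript lay above background in NKDxIL15tg cells is not known, and the size of the change depends on the floor. Within the spleen Cx3cr1 fell by 4.66 ± 0.30 on the log2 scale with the floor of 16 (adjusted p = 2.78e-05), and fell by 3.89 where intensities below 64 were set to 64.

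With both NKDxIL15tg groups this dim, a difference between the organs could not be measured (-0.20 ± 0.30). The test for unequal steps passed for Cx3cr1 alone of the 10, against 1.73% of all tested probe sets, but the dim pair of groups fixes that outcome and nothing is read from it. The dimmer probe set 1450019_at did not follow: it read 25.3 to 36.2 in bone marrow, 28.7 to 38.5 in NKDxIL15tg spleen and 30.5 to 46.7 in IL15tg spleen, overlapping throughout and below the filter. Monocytes also make Cx3cr1 and Ccr2. Sums of 13 monocyte/macrophage genes were 1648 to 5098 in bone marrow, 1705 to 2069 in NKDxIL15tg spleen and 1840 to 1954 in IL15tg spleen. Of 10 tested genes 0 passed within the spleen in limma, with 1 at an unadjusted p under 0.05. In bone marrow against IL15tg spleen 1 rose (Lyz2) and 1 fell (C1qc). The part of monocyte RNA in the Cx3cr1 and Ccr2 differences was not tested.

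**Figure D3:**
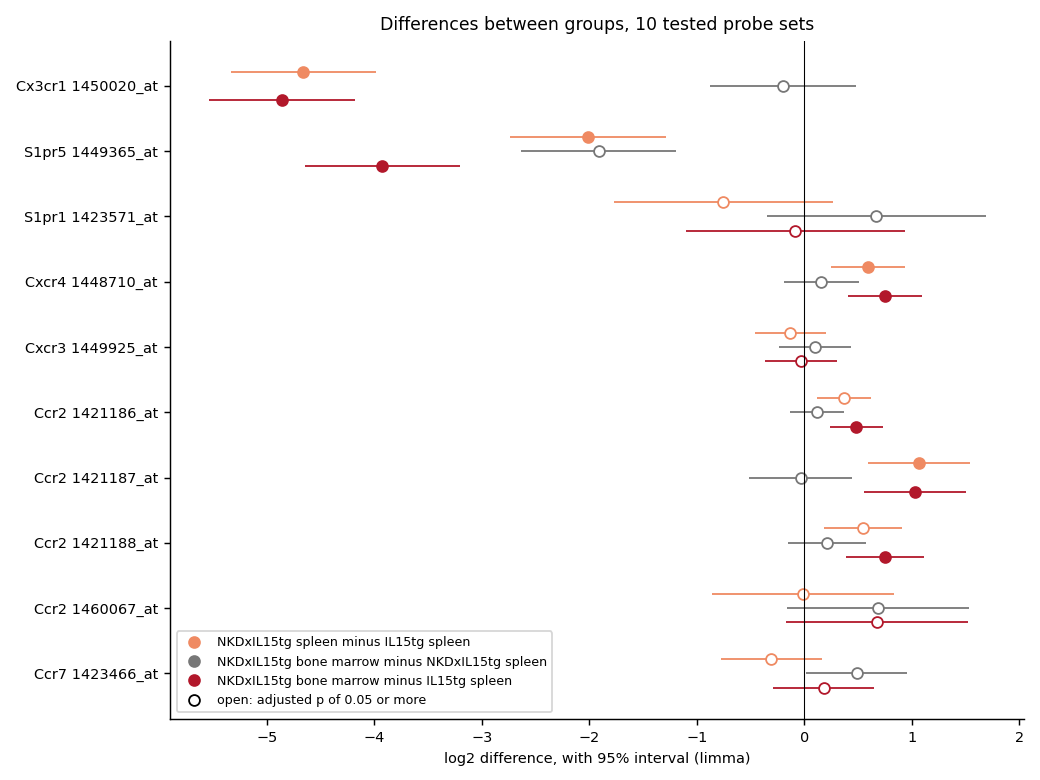
Log2 differences with 95% intervals (limma) for the 10 tested receptor probe sets in the 3 comparisons; filled points have an adjusted p under 0.05. Cx3cr1 and S1pr5 lie far left of 0 against IL15tg spleen, Cxcr4 and 3 of 4 Ccr2 probe sets lie right of it, and no organ difference (grey) is filled.

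Ccr2, which guides cells out of marrow and toward inflamed tissue, was higher in NKDxIL15tg cells by 3 of its 4 probe sets. Probe set 1421187_at read 474, 402 and 547 in NKDxIL15tg bone marrow, 445, 512 and 492 in NKDxIL15tg spleen and 280, 268 and 163 in IL15tg spleen. The 6 NKDxIL15tg arrays lay above the 3 IL15tg arrays and overlapped with one another. Its log2 change was 1.07 ± 0.21 within the spleen (adjusted p = 0.0116) and 1.03 ± 0.21 for bone marrow against IL15tg spleen (adjusted p = 0.00928), and both passed in all 20 alternative settings.

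The brightest Ccr2 probe set, 1421186_at, read 3138, 3154 and 3824 in NKDxIL15tg bone marrow, 3077, 3002 and 3221 in NKDxIL15tg spleen and 2331, 2511 and 2362 in IL15tg spleen. It had the same order with a smaller change, 0.37 ± 0.11 within the spleen (adjusted p = 0.0580, but 0.0219 without bone marrow replicate 3) and 0.48 ± 0.11 for bone marrow against IL15tg spleen (adjusted p = 0.0149, but 0.0615 and 0.0506 without IL15tg replicates 1 and 3). Probe set 1421188_at gave 0.55 ± 0.16 within the spleen (adjusted p = 0.0538, 0.0255 with the replicate number as a block, 0.0320 without bone marrow replicate 3 and 0.0241 without NKDxIL15tg spleen replicate 2). For bone marrow against IL15tg spleen it gave 0.75 (adjusted p = 0.0110, but 0.0508 without IL15tg replicate 1). The fourth, 1460067_at, did not follow: it read 379, 358 and 1084 in bone marrow, 323, 274 and 399 in NKDxIL15tg spleen and 321, 318 and 356 in IL15tg spleen, with the spleens at -0.01 ± 0.37 (adjusted p = 0.992). Bone marrow was at 0.69 against NKDxIL15tg spleen (adjusted p = 0.488) and 0.67 against IL15tg spleen (adjusted p = 0.224). Without bone marrow replicate 3 these changes were 0.17 and 0.15. Bone marrow replicate 3, where this probe set stood out, held 2080 probe sets more than 2-fold above every other array. The sum of 13 monocyte and macrophage genes was 5098 there, against 1648 and 2271 in the other bone marrow arrays. Of that list Csf1r was at 2600 against 634 and 656. Adgre1 (115 against 99.6 and 110) and C1qa (51.3 against 47.9 and 47.2) stayed close. The part of monocyte RNA in this result was not tested.

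Cxcr6, the receptor for Cxcl16, was dim but parted the genotypes. Probe set 1422812_at read 9.94, 7.37 and 9.81 in NKDxIL15tg bone marrow, 10.5, 13.6 and 16.7 in NKDxIL15tg spleen and 61.0, 70.9 and 73.4 in IL15tg spleen. Probe set 1425832_a_at read 18.8 to 21.9 in NKDxIL15tg bone marrow, 22.02 to 26.1 in NKDxIL15tg spleen and 49.5 to 54.5 in IL15tg spleen. Every NKDxIL15tg array lay below every IL15tg array in both. The second also formed 3 separate ranges in the order of S1pr5, with the 2 NKDxIL15tg ranges almost touching. With the filter lifted, the spleen changes were -2.07 and -1.12 (adjusted p = 2.0e-05 and 0.000684), for probe sets that had failed it. Both sizes depend on the floor: with a floor of 64 the changes were -0.12 and 0. Of the first probe set, 5 of the 6 NKDxIL15tg values lie under 16 and were set to it. That took away spread within the groups, so its adjusted p is not informative.

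Cxcr3, the receptor for Cxcl9 and Cxcl10, did not pass in any comparison. It read 1149, 938 and 1359 in NKDxIL15tg bone marrow, 1100, 1030 and 1050 in NKDxIL15tg spleen and 1074, 1300 and 1114 in IL15tg spleen. The log2 change was -0.13 ± 0.15 within the spleen (95% interval -0.46 to 0.20, adjusted p = 0.659) and 0.10 ± 0.15 between the organs (-0.23 to 0.43, adjusted p = 0.782). These intervals leave out a 2-fold change in either direction. Its ligand gene Cxcl10 was lower in bone marrow than in IL15tg spleen (-0.74 ± 0.20, adjusted p = 0.0309, but 0.0505, 0.104 and 0.0917 without IL15tg replicates 1, 2 and 3 and 0.0655 without bone marrow replicate 1). It was the 1 of 4 tested ligand genes to pass in any comparison.

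Ccr7, the lymph node homing receptor, read 62.6, 74.3 and 118 in NKDxIL15tg bone marrow, 59.7, 55.2 and 60.2 in NKDxIL15tg spleen and 68.7, 69.2 and 79.1 in IL15tg spleen. Bone marrow lay above NKDxIL15tg spleen in all arrays, at 0.49 ± 0.21 (95% interval 0.02 to 0.95), but the adjusted p was 0.474. The difference was 0.22 without bone marrow replicate 3. Within the spleen it was -0.31 ± 0.21 (adjusted p = 0.397).

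Of 19 other chemokine receptors 9 were tested, and Ccr6, the receptor for Ccl20, also formed 3 separate ranges. It read 30.3, 29.0 and 25.0 in NKDxIL15tg bone marrow, 67.6, 68.3 and 84.3 in NKDxIL15tg spleen and 148, 235 and 263 in IL15tg spleen, with no overlap between groups. The log2 change was -1.52 ± 0.21 within the spleen (adjusted p = 0.00208) and -1.38 ± 0.21 between the organs (adjusted p = 0.111, but 0.0190 without IL15tg replicate 1). Bone marrow lay below the filter intensity, and with a floor of 64 the organ step was -0.19 (adjusted p = 0.730), so its size is not settled. B cells make Ccr6, and the B cell gene Ms4a1, which encodes CD20, ran with it: 20.4, 16.3 and 18.2 in bone marrow, 148, 162 and 115 in NKDxIL15tg spleen and 292, 475 and 557 in IL15tg spleen. Of 10 tested B cell genes 5 were lower in NKDxIL15tg than in IL15tg spleen, as were 4.87% of all genes. Between the organs 2, Ms4a1 and Cr2, were lower in bone marrow, while the median log2 change of the 10 was -0.03. In bone marrow against IL15tg spleen 5 were lower and 1, Vpreb3, was higher. Sums over 13 listed genes overlapped (1689 to 3539 in bone marrow, 2607 to 3734 in NKDxIL15tg spleen and 2464 to 3905 in IL15tg spleen). The part of B cell RNA in the Ccr6 and S1pr5 gradients was not tested. Cxcr2, a receptor of neutrophils, was higher in bone marrow than in IL15tg spleen (0.61 ± 0.17, adjusted p = 0.0300, but 0.115, 0.0569 and 0.0623 without IL15tg replicates 1, 2 and 3, and 0.10 with an adjusted p of 0.412 with a floor of 64), beside 11 of 12 granulocyte genes that rose there, and the part of granulocyte RNA was not tested. The other 7 tested receptors did not pass in any of the 3 comparisons.

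Among 10 tested regulators reported for these receptors, 4 fell and 1 rose in NKDxIL15tg against IL15tg spleen. Of all genes 4.87% fell and 7.65% rose there. Between the organs 0 of the 10 passed (1 at an unadjusted p under 0.05, limma), against 0.0696% of all genes. Zeb2 read 177, 122 and 158 in NKDxIL15tg bone marrow, 389, 151 and 306 in NKDxIL15tg spleen and 2087, 1765 and 1572 in IL15tg spleen. Tbx21 read 849, 418 and 676 in NKDxIL15tg bone marrow, 1029, 701 and 791 in NKDxIL15tg spleen and 2227, 2099 and 1781 in IL15tg spleen. For both, the spleens did not overlap and the organs did, unlike S1pr5, and NKDxIL15tg spleen replicate 2 was the lowest of its group for all 3 genes. Zeb2 fell by 2.78 ± 0.32 within the spleen, a call kept in all 20 settings, and gave -0.80 ± 0.32 between the organs (adjusted p = 0.462). Tbx21 fell by 1.29 ± 0.25 within the spleen (adjusted p = 0.0113, but 0.0517 without IL15tg replicate 1) and gave -0.42 ± 0.25 between the organs (adjusted p = 0.499).

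Klf2, the regulator of S1pr1, gave -0.51 ± 0.17 within the spleen (adjusted p = 0.0879, but 0.0373 and 0.0322 without bone marrow replicates 2 and 3). In bone marrow against IL15tg spleen it fell by 0.76 ± 0.17 (adjusted p = 0.0148, but 0.0584 and 0.0593 without IL15tg replicates 1 and 2). Prdm1 (-0.73) and Id2 (-0.52), transcription factors of effector lymphocytes and of innate lymphoid cells, fell within the spleen, calls lost in 6 and 2 of 20 settings and never in bone marrow against IL15tg spleen. Gfi1, a transcriptional repressor, rose by 0.47 (adjusted p = 0.0474), a call lost in 10 of 20 settings, the replicate block among them (0.0670).

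**Figure D4:**
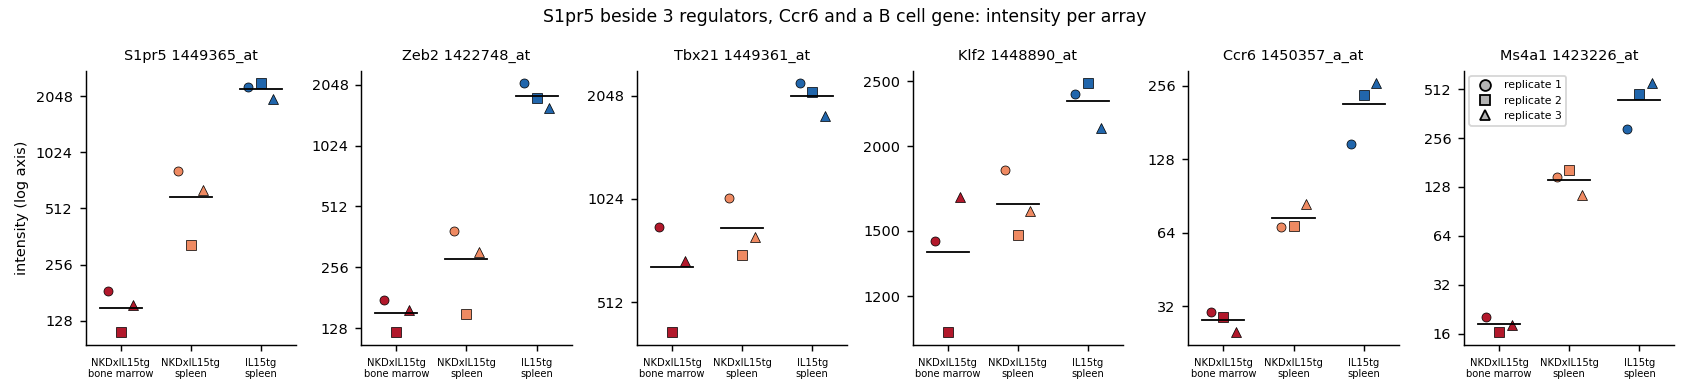
Intensity per array (log axes, 1 scale per panel) of S1pr5, the regulators Zeb2, Tbx21 and Klf2, the chemokine receptor Ccr6 and the B cell gene Ms4a1, by group, with the bar at the mean of 3 arrays. S1pr5, Ccr6 and Ms4a1 form 3 separate ranges, and Zeb2, Tbx21 and Klf2 overlap between bone marrow and spleen of NKDxIL15tg mice.

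Genes of signalling below the receptors passed about as often as genes at large. Of 35 tested, 3 rose and 3 fell within the spleen (17.1%, where 12.5% of all genes passed), 0 passed between the organs (0 at an unadjusted p under 0.05, limma), and 3 rose and 4 fell in bone marrow against IL15tg spleen (20%, where 20.2% of all genes passed). Those that rose within the spleen were Grk5, Arrb1 and Rgs18. Grk5, a kinase that marks active receptors for shut-off, rose by 1.11 ± 0.16, Arrb1, the arrestin that binds them, by 0.95 ± 0.17, and Rgs18, which speeds the turn-off of G proteins, by 1.46 ± 0.27 within the spleen. These calls held in all 20 settings. Grk5 read 329, 238 and 314 in bone marrow, 339, 316 and 251 in NKDxIL15tg spleen and 145, 144 and 129 in IL15tg spleen, with the organs overlapping. Those that fell were Gna13, Pik3r5 and Dock8. Gna13, a G protein alpha subunit, fell by 0.64 ± 0.12 in all 20 settings, with 2 further of its 6 tested probe sets passing. Pik3r5, the regulatory subunit of a lipid kinase, fell by 1.13 ± 0.22 (adjusted p = 0.0117, but 0.0547 without IL15tg replicate 2), and Dock8, an exchange factor of migrating leukocytes, by 0.91 ± 0.20 (adjusted p = 0.0182, but 0.0767 and 0.0520 without IL15tg replicates 1 and 2 and 0.0507 and 0.0706 without NKDxIL15tg spleen replicates 1 and 2). Rgs19 passed in bone marrow against IL15tg spleen (-0.32, adjusted p = 0.0495) and lost the call in 12 of 20 settings.

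Adhesion molecules that act with these receptors split as well, with 2 of 13 tested risen and 2 fallen within the spleen. Of all genes 7.65% rose and 4.87% fell there. Between the organs 0 of the 13 passed (2 at an unadjusted p under 0.05, limma), against 0.0696% of all genes. In bone marrow against IL15tg spleen 2 rose and 6 fell, against 11.5% and 8.7% of all genes. Itga1, the collagen-binding integrin chain CD49a, rose by 2.05 ± 0.19, at 464, 543 and 408 in NKDxIL15tg spleen against 105, 110 and 125 in IL15tg spleen. Itgb1, its partner chain, rose by 0.84 ± 0.18 (adjusted p = 0.0182, but 0.0739, 0.0701 and 0.0595 without IL15tg replicates 2 and 3 and NKDxIL15tg spleen replicate 1). Itgam (CD11b) fell by 2.77 ± 0.13 and Icam2 by 0.93 ± 0.12, both in all 20 settings. Icam1, an integrin ligand, gave -0.45 within the spleen (adjusted p = 0.0703, but 0.0386 with the replicate number as a block). Itgb7, a chain of gut-homing integrins, was graded like S1pr5, at 883, 965 and 1022 in bone marrow, 1436, 1493 and 1371 in NKDxIL15tg spleen and 1775, 1773 and 2014 in IL15tg spleen. It fell by 0.95 ± 0.11 over both steps (adjusted p = 0.000494), while the spleen step was -0.37 (adjusted p = 0.0504, which passed under 8 of 20 settings) and the organ step -0.58 (adjusted p = 0.208).

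Of the 8 receptors, Cx3cr1, S1pr5, Cxcr6 and Ccr2 lie on chromosome 9. Cxcr6 and Ccr2 belong to one run of genes there, in the RefSeq order Ccr9, Fyco1, Cxcr6, Xcr1, Ccr1, Ccr1l1, Ccr3 and Ccr2. Within it, 1 Ccr2 probe set rose in NKDxIL15tg against IL15tg spleen, while both Cxcr6 probe sets, which were not tested, read lower. Of the genes beside Cxcr6, Fyco1 (-0.11, adjusted p = 0.783) and Xcr1 (0.19, adjusted p = 0.304) did not pass.

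Genes whose log2 intensity followed each receptor most closely over the 9 arrays were found among 22101 tested probe sets with a single symbol and are given as a description, since group differences shape all of them. Closest to S1pr5 were As3mt, an arsenic methyltransferase (Pearson r = 0.988), Macir, a regulator of macrophage immunometabolism (0.987), and Rap1gap2, a GTPase-activating protein (0.985). As3mt shared the low NKDxIL15tg spleen replicate 2, at 159, 74.7 and 144 there, 58.8, 50.5 and 54.2 in bone marrow and 476, 479 and 427 in IL15tg spleen. Closest to Cx3cr1 were Tubb2a (0.995), a tubulin, Serpinb9b (0.994), a granzyme inhibitor, and Fam102b (0.990). Serpinb9b also peaked at replicate 2 within both NKDxIL15tg groups, at 54.4, 78.1 and 54.5 in bone marrow and 75.03, 95.4 and 66.7 in spleen, against 451, 351 and 363 in IL15tg spleen. Closest to Cxcr4 were Phb2 (0.990), Vipas39 (0.983) and Tmem147 (0.983), and to Ccr2 Ift80 (0.988), Adpgk (0.984) and Mrpl44 (0.982). For S1pr1 (Ube2k, 0.997) and Ccr7 (Idh2, 0.981) r was 0.994 and 0.956 without bone marrow replicate 3. Cxcr3 had 18 probe sets with r over 0.9, fewer than each of the other 6 tested receptors, which had 247 to 919.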

How the data were processed

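Gene expression was measured on 9 arrays, 3 per group, from total RNA of FACS-sorted NK cells (150 ng, 2 cycles of 3' amplification, per the labels' protocols). The deposited values are linear intensities, 1 per probe set and array. The authors' probe summary and scaling are not given in the sources used here, so nothing was rescaled (array medians differ by at most 0.20 log2). From the 45101 deposited probe sets, 64 controls were removed. Intensities below 16 (4.36% of values) were set to 16, log2 was taken, and 27022 probe sets with a mean log2 of at least 5.58 (40th percentile, intensity 47.7) were tested. The files carry no detection calls.

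The 3 group means were estimated jointly from the 9 arrays by limma (version 3.58.1, R 4.3.3), with moderated variances and Benjamini-Hochberg adjustment over all tested probe sets at 0.05. The fit was also run on simulated data, with independent noise on each array and changes put into NKDxIL15tg spleen alone. The simulation held no outlying array and no paired replicates, so it does not bear on bone marrow replicate 3. Gene names came from GEO's platform table (34945 with 1 symbol, 932 with several, 9160 with none). From each gene list, its brightest probe set stood for a gene, and per list and comparison up to 4 passing genes of largest change were named, plus S1pr2, S1pr3, S1pr4, Cd69, Klf2, Tbx21, Zeb2 and Cxcl12, and for each receptor the 3 most correlated probe sets. Itgb7 and Icam1 values outside that rule were chosen after they were seen. Members and lists were chosen with earlier results of these data known.

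Replicate numbers were checked as pairs: deviations of same-numbered arrays correlated at 0.379, 0.258 and 0.228 between the NKDxIL15tg organs, at 0.163, 0.156 and 0.123 between the spleens, and at 0.170, -0.02 and 0.242 between bone marrow and IL15tg spleen. Arrays of unlike number correlated at -0.349 to -0.007, -0.319 to 0.155 and -0.370 to 0.267. Deviations sum to 0 within a group, which lowers these values. The main model held no pairing, and with the replicate block 0 receptor probe sets passed between the organs. The alternatives were 2 other scalings, 2 floors, 2 filters, an intensity trend, array weights, a fit of the compared groups alone, a replicate block, each array left out, and 1 added after seeing the data.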

Additional observations from a re-analysis of the deposited data

How the results depend on the processing

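No result that passed its test changed sign under the alternatives run (20, or 19 for dim genes such as S1pr1, Ccr7 and Ccr6). Of 133 single values 22 changed sign, none called in either setting, among them the organ steps of Cx3cr1 and Cxcr3 and S1pr1 in bone marrow against IL15tg spleen. The number of receptor probe sets that passed was 4 within the spleen, 0 between the organs and 6 for bone marrow against IL15tg spleen. The first was 7 with array weights, 7 in a fit of the compared groups alone, 7 without bone marrow replicate 3 scaled to the 75th percentile (chosen after seeing the data), and 3 to 7 with single arrays left out. The second was 0 to 1 with single arrays left out, S1pr5 without NKDxIL15tg spleen replicate 2, as was the count passing in both steps (0 to 1), and the third 4 to 7. The count of separate ordered ranges, 1, was 2 with no filter, 2 without bone marrow replicate 3 scaled to the 75th percentile, and 1 to 3 with single arrays left out (3 without NKDxIL15tg spleen replicate 3). The count of unequal steps, 1, was 2 with no filter and 1 to 1 with single arrays left out.

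Over all probe sets, 3725 passed within the spleen, against 5685 with array weights and 1809 to 5483 with single arrays left out (2112 when NKDxIL15tg spleen replicate 2 was left out, and 1809, 1812 and 2070 when IL15tg replicate 1, 2 or 3 was). Between the organs 14 passed, against 4 with a floor of 64, 2 with no filter, 23 with the replicate block, and 1 to 15 with single arrays left out (1 and 4 without NKDxIL15tg spleen replicates 1 and 3, 4 without bone marrow replicate 2). Bone marrow against IL15tg spleen gave 5764, and 3089 to 6342 with single arrays left out (3089 and 3480 without IL15tg replicates 1 and 2). Beyond the calls named in the text, the replicate block gave adjusted p = 0.0207 for S1pr4 and 0.0672 for Rgs19 in bone marrow against IL15tg spleen. Whether the replicate numbers pair between those groups is not known. The causes were not tested. The 60th percentile filter left out S1pr1 and Ccr7. With 3 arrays a group, precision rests on their number, and dim signals lack a detection call.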
